A study of Mus musculus with 3 samples.

Results

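The genes described here encode the proteasome, its activators and its inhibitor. They were taken by symbol: every gene in the heart feature list whose symbol starts with Psma, Psmb, Psmc, Psmd, Psme or Psmf followed by a digit. That rule took 46 of 28692 genes and used no measured value. The immunoproteasome subunits Psmb8, Psmb9 and Psmb10 were kept apart. A further gene the rule took, Psmc3ip, encodes a meiotic recombination factor and no proteasome subunit, and it was counted with the 46 but placed in no structural group.

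The proteasome is the protease that degrades ubiquitin-tagged proteins in the cytosol and nucleus. Its 20S core is a barrel of alpha and beta subunit rings, and 3 of the constitutive beta subunits, encoded by Psmb6, Psmb7 and Psmb5, carry the proteolytic sites. Lymphocytes and cells exposed to interferon build cores in which Psmb9, Psmb10 and Psmb8 replace these 3, forming the immunoproteasome, which is known for generating peptides for MHC class I. The 19S cap recognises, unfolds and admits ubiquitinated substrates, and other caps such as the PA28 complex of Psme1 and Psme2 open the core without ATP.

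The cells were wild-type (WT) TEa cells, CD4+ T cells with a transgenic T cell receptor for the BALB/c I-E alpha alloantigen. C57BL/6 (B6) mice were given naive, congenically marked TEa cells by adoptive transfer and were then transplanted with BALB/c hearts. At 7 days after transplantation the TEa cells were sorted from the heart allografts and from the spleens. There was 1 droplet library (10x Genomics 3' chemistry) from each tissue, so a difference between tissues cannot be told apart from one between libraries, and no test or replicate check was possible. How many mice were pooled is not given in the sources used here, and the labels' protocol speaks of a nuclei suspension. A library of Ldha-/- TEa cells from spleen was not analysed here, because its rows could not be named.

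After filtering, 3986 heart cells and 6569 spleen cells were kept, with 42254366 and 56239410 unique molecular identifiers (UMIs, counts of distinct transcript molecules) and medians of 8236 and 7988 UMIs per cell. The kept cells carried the 8 T cell markers, which summed to 12089 and 11425 CPM (counts scaled to a total of 1e6 UMIs), and all 4 cardiomyocyte markers were at 0 in the heart library. The 11 myeloid markers added up to 329 and 208 CPM, and erythroid markers to 0.071 and 171 CPM. Of all UMIs, 29.8% in heart and 35.2% in spleen came from ribosomal protein genes, which bears on every CPM value below. There were 6 barcodes shared by both libraries.

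Short stretches upstream of 5 members are shown because these genes carry sequence letters that interferon-regulated and other promoters are known for. In the 250 bases before the RefSeq start sites (GRCm38.p6; 39 of 46 members matched, with 42 promoters), the letters TTCNNNGAA (the GAS element bound by STAT factors) were found on either strand in 1 member promoter, that of Psmb8. The interferon-stimulated response element (ISRE), searched as GAAA, NN and GAAA in a row, was found in 3, those of Psmb3, Psmd4 and Psmd9. Psmb9 and Tap1, a peptide transporter gene, are divergent neighbours whose start sites lie 226 bases apart, and the first 30 bases from the Psmb9 side hold a CCAAT box. Capitals mark the matched letters.
Psmb8, chr17:34198088-34198116, plus strand: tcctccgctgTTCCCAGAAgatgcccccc
Psmb3, chr11:97703261-97703290, plus strand: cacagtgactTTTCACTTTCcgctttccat
Psmd4, chr3:95042675-95042704, minus strand: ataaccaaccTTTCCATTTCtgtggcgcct
Psmd9, chr5:123228021-123228050, plus strand: gggacagaatGAAAAAGAAAggaatgaaca
Psmb9 to Tap1, chr17:34187331-34187360, plus strand: tttCCAATcagcggctgcgcgcggtgcagg

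These matches are a description of letters only. Of all 32851 mouse promoters of the same length, 7.02% held TTCNNNGAA and 2.98% held the ISRE letters. CCAAT was in 15 of the 42 member promoters and in 33.8% of all promoters, and TGANNNNGC, the core of the antioxidant response element, was in 16 of 42 and in 35.2%. The whole 225 bases between the Psmb9 and Tap1 start sites held 1 CCAAT, 1 TGANNNNGC and no copy of the ISRE letters or of TTCNNNGAA. In the GENCODE M21 annotation a longer Psmb9 transcript spans this stretch: the gene runs from 34181987 to 34187764 on the minus strand, across the Tap1 start at 34187553. The Psmb8 and Psmd9 stretches likewise lie inside the annotated genes, which start at 34197721 and 123169413.

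Proteasome transcripts made up 0.836% of all UMIs in graft TEa cells and 0.741% in spleen TEa cells. Summed over the 46 genes, that is 8363 CPM (95% Poisson interval 8335 to 8390) in heart against 7413 (7390 to 7435) in spleen, 1.13-fold higher in heart. All intervals cover counting error only. The size of this small difference hangs on the total that is divided by: with mitochondrial, ribosomal protein and Malat1 UMIs left out of the total, the sums were 12764 and 12720 CPM of the remaining UMIs. Without cycling cells the sums were 7756 and 7270 CPM. The log2 ratio of the sums, 0.17, was 0.02 among cells of 5000 to 12000 UMIs and 0.27 without heart cluster 4, a cluster of 1155 cells led by heat shock genes and described below.

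Of the 46 genes, 34 had at least 50 CPM in either library and 12 had less. Among the 34, the median log2 ratio of heart over spleen, computed on CPM + 1, was 0.11, and the median of all 2705 genes past the same floor was 0.05. The ratio was above 0 for 27 of the 34, which is 79.4%, and for 53.5% of all genes. This excess over all genes did not hold in every choice of cells. The count was 17 of 34 without cycling cells, 14 among cells of 5000 to 12000 UMIs and 32 without heart cluster 4. In this order the member medians were −0.01, −0.09 and 0.22, and those of all genes 0.01, −0.02 and 0.09. The count was 18 with cells thinned to 1000 UMIs and 26 with median-of-ratios scaling. The values that follow are over all kept cells. Only Psma5 was at least 1.5-fold higher in heart, where 19.6% of all genes were, and 0 members were at least 1.5-fold lower, where 13.7% of all genes were. No member reached 2-fold in either direction, against 11.7% of all genes higher and 4.88% lower. The members thus lay closer together than genes at large: 33 of 34 were within 1.5-fold, against 66.7% of all genes, and the interquartile range of the member ratios ran from 0.06 to 0.34 while that of all genes ran from −0.33 to 0.46.

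**Figure D1:**
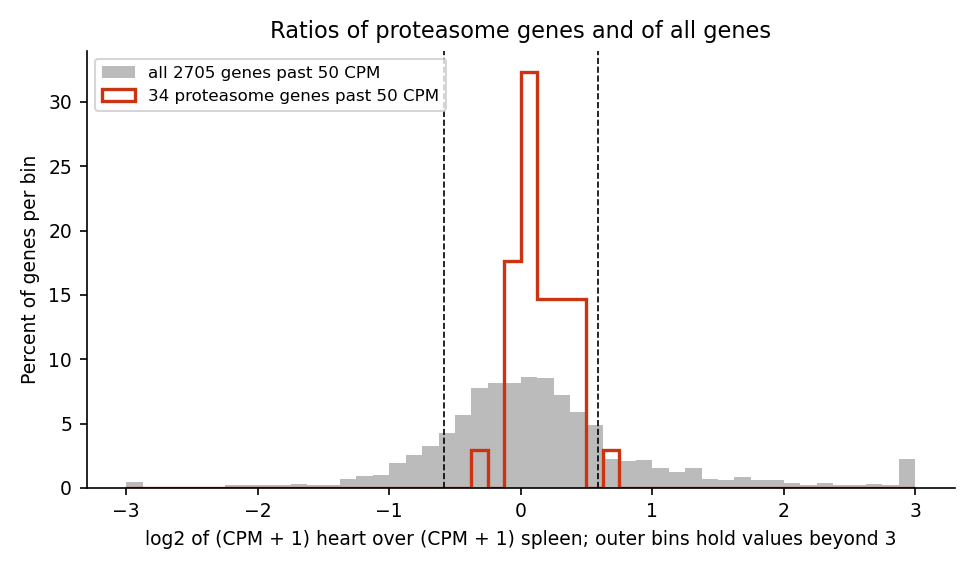
Percent of genes in each bin of the log2 ratio of heart over spleen (CPM + 1), for all 2705 genes past 50 CPM (grey) and the 34 proteasome genes past it (red outline). Dashed lines mark 1.5-fold, and the red outline stays between them except for 1 gene, Psma5.

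Across 15 ways of scaling and choosing cells, 11 of the 34 members kept the sign of their ratio and 23 did not. Those higher in heart throughout were Psma5, Psmb2, Psmd8, Psma1, Psmc6, Psme1, Psmb3, Psma3 and Psmb1, and those lower throughout were Psmd4 and Psma6. Leaving mitochondrial, ribosomal protein and Malat1 UMIs out of the totals changes the log2 of every plain CPM ratio by −0.169, and median-of-ratios scaling by −0.049. For most members the heart to spleen difference is no larger than the first of these shifts, but it is larger than the second.

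**Figure D2:**
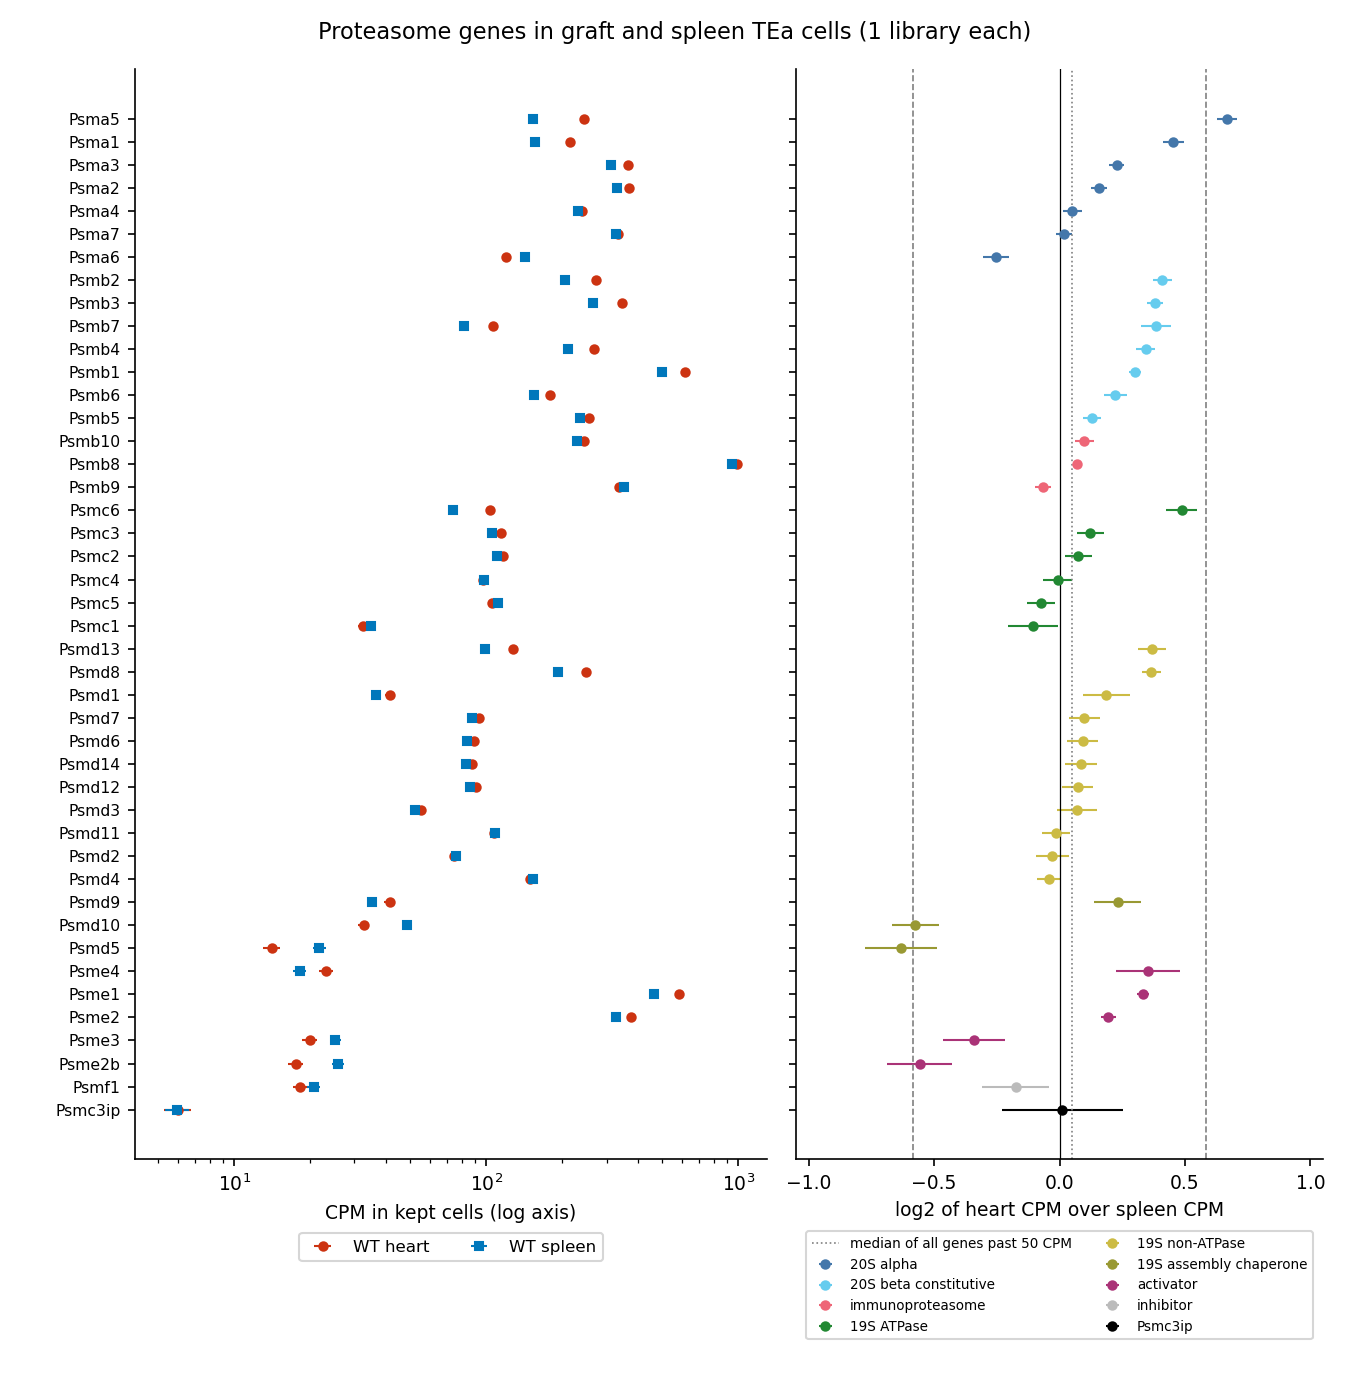
Left, CPM of each detected member in heart and spleen cells on a log axis; right, the log2 ratio of heart CPM over spleen CPM, coloured by structural group. Horizontal bars are 95% counting intervals, dashed lines mark 1.5-fold, and the dotted line is the median of all genes past 50 CPM. Psma5 stands farthest to the right at 244 against 154 CPM.

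The 7 expressed alpha subunits, which form the outer rings and the gate of the core, summed to 1883 CPM in heart against 1654 in spleen. Psma5 (chromosome 3, 108256926 to 108279974, plus strand) had 244 CPM (239 to 249) in heart against 154 (150 to 157) in spleen, a log2 ratio of 0.66. Psma6, the alpha subunit with the lowest ratio, had 119 CPM (116 to 123) and 142 CPM (139 to 145), a log2 ratio of −0.25. The 2 genes encode subunits present in equal number in every core. They were picked as the highest and lowest ratios of the 7, so a gap between them follows in part from the choice. Psma5 UMIs were 2.04 times Psma6 UMIs in heart and 1.08 times in spleen. This difference between the 2 log2 ratios, 0.92, does not depend on the total used, and over the 15 settings it ran from 0.43 (cells of cluster 6, described below) to 1.10 (cells of 5000 to 12000 UMIs). Psma1 had 214 and 157 CPM, and the other 4 alpha subunits had log2 ratios from 0.02 to 0.23. Psma8, the testis form of the alpha 4 subunit, had 0 UMIs in both libraries, which allows up to 0.071 CPM in heart against 0.0533 in spleen.

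The constitutive beta subunits, which form the inner rings, summed to 2041 CPM (2027 to 2054) in heart against 1649 (1639 to 1660) in spleen. All 7 were higher in heart, with log2 ratios from 0.13 for Psmb5 to 0.41 for Psmb2, and the log2 ratio of the sums, 0.31, stayed above 0 at 0.14 with mitochondrial, ribosomal protein and Malat1 UMIs left out and at 0.26 without cycling cells. Within cycling cluster 6, however, Psmb4, Psmb5, Psmb6 and Psmb7 had ratios below 0. Psmb2, a structural subunit of the inner ring, had 272 CPM (267 to 277) in heart against 205 (201 to 208) in spleen. Of the 3 catalytic genes, Psmb5 (chymotrypsin-like site) had 256 and 235 CPM, Psmb6 (caspase-like site) had 180 and 154 CPM, and Psmb7 (trypsin-like site) had 106 and 81.5 CPM. Psmb11, the thymus form of the catalytic beta 5 subunit, had 0 UMIs in both libraries.

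The immunoproteasome subunits differed little between the tissues. Psmb8 had 992 CPM (983 to 1002) in heart against 944 (936 to 952) in spleen. Psmb9 had 337 CPM (332 to 343) and 353 CPM (348 to 358), and Psmb10 had 244 CPM (240 to 249) and 228 CPM (224 to 232). Their log2 ratios were 0.07, −0.06 and 0.10, and the log2 ratio of their sum, 0.04, turned to −0.12 with mitochondrial, ribosomal protein and Malat1 UMIs left out and to −0.07 without cycling cells. The 6 markers of the interferon response were also alike, at 387 CPM in heart against 381 in spleen.

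Set against their constitutive counterparts, the immunoproteasome genes held most of the catalytic UMIs in both tissues. Psmb8, Psmb9 and Psmb10 together made up 74.4% (74.1 to 74.7%, Clopper-Pearson) of the UMIs of the 6 catalytic genes in heart and 76.4% (76.2 to 76.7%) in spleen. These shares compare cells, not subunits: genes may differ in how well their 3' ends are captured. By pair, Psmb8 held 79.5% in heart and 80.1% in spleen of the UMIs it shares with Psmb5. Psmb9 held 65.2% and 69.6% of its pair with Psmb6, and Psmb10 held 69.7% and 73.7% of its pair with Psmb7. Over all kept cells the share was lower in heart for each pair, by less than 1 percentage point for Psmb8. In the Psmb8 and Psmb10 pairs both genes were higher in heart, the constitutive gene by more. In the third pair Psmb9 was lower while Psmb6 was higher. In cluster 6, described below, the share was instead higher in heart for Psmb8 (78.6% against 74.9%) and Psmb10 (67.6% against 64.9%). For Psmb9 it was 65.0% in heart and 65.6% in spleen there.

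The 6 ATPases of the 19S base, Psmc1 to Psmc6, unfold substrates and thread them into the core, and they summed to 571 CPM in heart against 534 in spleen. Psmc6 had the highest ratio, with 104 CPM (101 to 107) against 74.1 CPM (71.9 to 76.4), a log2 ratio of 0.48. Psmc5 had the lowest among those past the floor, with 106 and 111 CPM. The log2 ratio of the sums, 0.10, turned to −0.07 with mitochondrial, ribosomal protein and Malat1 UMIs left out, so the ATPases as a group had no direction that held. Psmc1 was under the floor with 32.5 and 35.0 CPM.

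The 11 other 19S subunits, which bind, deubiquitinate and hold substrates, summed to 1165 CPM in heart against 1059 in spleen, a log2 ratio of 0.14 that turned to −0.03 with the same UMIs left out. Psmd13 had the highest ratio, with 128 CPM (124 to 131) against 98.8 CPM (96.2 to 101). Psmd8 was close behind, with 248 and 192 CPM. Psmd4, the ubiquitin receptor also known as Rpn10, had the lowest ratio, with 149 CPM (145 to 152) against 153 CPM (150 to 156). Psmd14, the deubiquitinase of the lid, had 88.0 and 82.9 CPM. Of the 10 past the floor, 7 had ratios above 0, and Psmd1 was under the floor with 41.6 and 36.5 CPM.

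Psmd5, Psmd9 and Psmd10 encode chaperones that assemble the 19S base and leave the finished particle, and all were under 50 CPM. Psmd5 had 14.1 CPM (12.9 to 15.2) in heart against 21.8 (20.6 to 23.0) in spleen, a log2 ratio of −0.60. Psmd10, also known as gankyrin, had 32.6 and 48.6 CPM, a log2 ratio of −0.56. Psmd9 went the other way, with 41.4 and 35.2 CPM. The group summed to 88.0 CPM in heart against 106 in spleen. The log2 ratio of these sums stayed below 0 with mitochondrial, ribosomal protein and Malat1 UMIs left out (−0.43) and without cycling cells (−0.33).

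Among the activators, the PA28 alpha and beta genes were higher in heart. Psme1, the PA28 alpha subunit, had 583 CPM (576 to 590) against 463 CPM (457 to 469), and Psme2, the PA28 beta subunit, had 374 CPM (368 to 380) against 327 CPM (322 to 332). Psme1 kept this direction in each of the 15 settings, and Psme2 did so in all but 1, the cycling cells, where its log2 ratio was −0.05. The nuclear PA28 gamma, encoded by Psme3, had 19.9 CPM (18.6 to 21.3) and 25.2 CPM (23.9 to 26.6). Psme4, which encodes the PA200 cap, had 23.2 CPM (21.7 to 24.7) and 18.2 CPM (17.1 to 19.3). Psmf1, the inhibitor PI31, had 18.3 CPM (17.03 to 19.6) and 20.6 CPM (19.5 to 21.9). Psme2b, a retrocopy of Psme2, had 17.5 and 25.8 CPM, and reads of the 2 near-identical sequences may have been split between them. Psmc3ip had 5.96 and 5.92 CPM.

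Member sums also differed between cell clusters. The kept cells fell into 8 clusters, made without the members, and all but the cycling cluster 6 drew over 99% of their cells from 1 library. Summed member levels ran from 6298 CPM in heart cluster 4, led by the heat shock genes Hspa1a and Hspa1b, and 6362 CPM in spleen cluster 1, naive-like or stem-like by Lef1, Tcf7 and the other markers of that list (3065 CPM in sum), up to 10329 CPM in the heart cells of cluster 6. Cluster 6 was led by Birc5, Mki67, Ube2c and Rrm2. Between these lay spleen cluster 2 (7352 CPM, led by haemoglobin genes), spleen cluster 3 (7378 CPM, led by Id3 and Egr2), heart cluster 0 (7890 CPM, led by Cxcr6 and Crem), the interferon-response spleen cluster 7 (8114 CPM) and spleen cluster 5 (8923 CPM, led by Ccl5 and Ccr2). With mitochondrial, ribosomal protein and Malat1 UMIs left out, the span narrowed to 10523 CPM of the remaining UMIs in heart cluster 4 and 14904 in the heart cells of cluster 6.

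**Figure D3:**
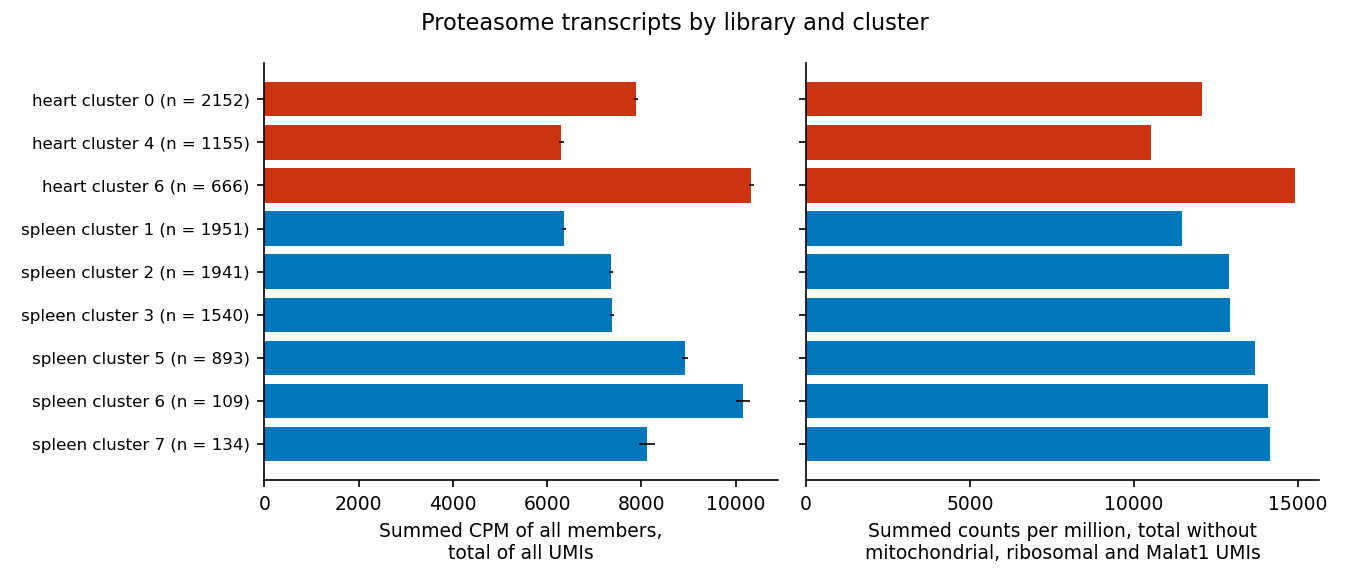
Summed level of the 46 genes in each library and cluster, in CPM of all UMIs (left, with 95% Poisson intervals as thin lines) and in CPM with mitochondrial, ribosomal protein and Malat1 UMIs left out of the total (right, no interval drawn). Bars start at 0, red is heart and blue is spleen, n is the number of cells, and cluster 6 is highest in each library on the left.

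The single genes followed this order to different degrees. Over the 9 combinations of library and cluster, the highest level of a member was a median 2.07 times its lowest, and that of all genes was 2.10 times. Of the 34 members, 27 were highest in cluster 6, 20 were lowest in heart cluster 4 and 11 were lowest in spleen cluster 1. The shares of all genes with these ranks were not counted, so the ranks are not shown to be particular to the members. Ribosomal protein genes held 26.6% of UMIs in the heart cells and 23.6% in the spleen cells of cluster 6. They held 34.8% in heart cluster 4 and 37.4% in spleen cluster 1. Psmd4 varied least, from 138 CPM in heart cluster 4 to 174 CPM in spleen cluster 5. Psmd14 varied most, from 56.0 CPM in heart cluster 4 to 152 CPM in the spleen cells of cluster 6. The 3 genes highest in spleen cluster 7 were the immunoproteasome subunits Psmb8, Psmb9 and Psmb10.

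In both tissues cycling TEa cells held more proteasome transcripts than the other cells. A cell was taken as cycling with at least 2 UMIs of 10 cycling markers after thinning to 1000 UMIs, which gave 508 heart cells (12.7%) and 182 spleen cells (2.77%). Member sums were 10161 CPM in cycling against 7756 CPM in other heart cells, and 10027 against 7270 CPM in spleen. With mitochondrial, ribosomal protein and Malat1 UMIs left out they were 14555 against 12106 CPM in heart and 14093 against 12627 in spleen. Cycling cells were deeper, with medians of 19301 and 14356 UMIs against 7841 and 7948, and the part of depth in the difference was not tested. The class is a range, not a type: 129 heart and 37 spleen cells had exactly 2 marker UMIs, and 537 and 385 had exactly 1.

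The median log2 ratio of cycling over other cells was 0.50 over 35 members in heart, where all genes had 0.06, and 0.53 over 38 members in spleen, where all genes had 0.22. In CPM of all UMIs, ratios were above 0 for 33 of 35 in heart and 38 of 38 in spleen. The share of all genes above 0 was not counted. Psmd1 and Psmd3 in heart, and Psmd1, Psmc1, Psmd9 and Psmd10 in spleen, passed the floor only through the cycling cells. Their ratios were thus above 0 by selection. Of these, Psmd1 in heart and Psmd1, Psmc1 and Psmd9 in spleen are in the counts that follow. At least 1.5-fold higher were 11 members in heart, where 19.8% of all genes were, and 17 in spleen, where 26.8% were. No member was at least 1.5-fold lower, where 9.77% of all genes were in heart and 9.86% in spleen. In both tissues 7 members reached 1.5-fold: the ATPases Psmc2, Psmc3 and Psmc4, the 19S subunits Psmd1, Psmd13 and Psmd14, and the catalytic Psmb6. The share of all genes that did so in both tissues was not counted, and Psmd1 passed the floor only through the cycling cells. Psmd13 had 188 against 107 CPM in heart and 187 against 93.98 CPM in spleen. Psmd1, the large scaffold of the base, had 62.2 against 34.6 CPM and 67.2 against 34.9 CPM. Psmb6 had 246 against 157 CPM and 256 against 148 CPM.

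A few members stood out from this pattern. Psmb1 had 547 CPM in cycling and 636 CPM in other heart cells, and 508 and 498 CPM in spleen. Psme1 had 563 and 590 CPM in heart, and 503 and 461 CPM in spleen. Psmd4 had 151 and 148 CPM in heart, and 167 and 152 CPM in spleen. In CPM of all UMIs, Psmb1, an inner-ring subunit, and the PA28 gene Psme1 were the only members past the floor lower in cycling heart cells. None was lower in cycling spleen cells on that scale. Leaving out mitochondrial, ribosomal protein and Malat1 UMIs moved the log2 ratio of the member sums from 0.39 to 0.27 in heart. In spleen it moved from 0.46 to 0.16. Each plain ratio moves alike, so Psmd4 in heart then lies below 0. In spleen Psmb1, Psme1, Psmd4, Psmd11, Psmb8 and Psmd10 do.

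**Figure D4:**
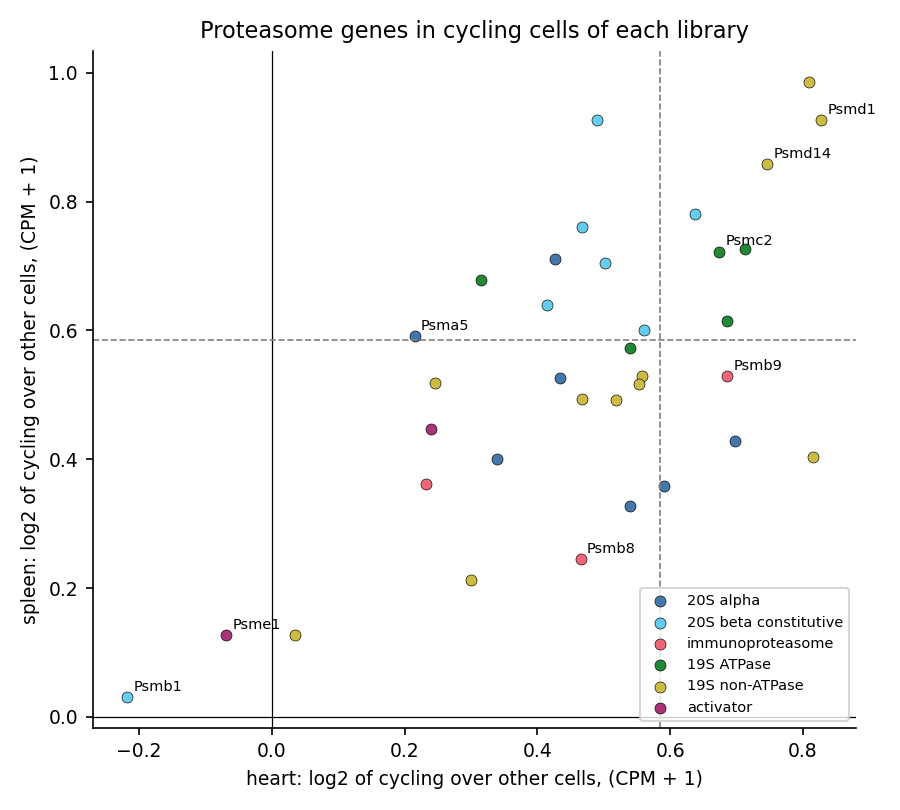
Log2 ratio of cycling over other cells (CPM + 1) in heart (x axis) and spleen (y axis) for the 35 members past 50 CPM in both comparisons, coloured by structural group. Dashed lines mark 1.5-fold; 7 members lie beyond both, and Psmb1 and Psme1 lie to the left of 0 in heart.

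Within cluster 6, where 666 heart and 109 spleen cells could be compared, member sums were 10329 CPM in heart against 10155 in spleen, a log2 ratio of 0.02 that was 0.08 with mitochondrial, ribosomal protein and Malat1 UMIs left out. The log2 ratio of the immunoproteasome sum was 0.12 there, and the member median log2 ratio was −0.04 where that of all genes was −0.12. No member was at least 1.5-fold higher in heart, where 10.3% of all genes were. Psmd10 (38.6 against 59.6 CPM) and Psmc1 (45.3 against 79.3 CPM) were at least 1.5-fold lower in heart, where 19.2% of all genes were. Both passed the floor only through the spleen cells, in which they were higher, so these calls carry no weight of their own. Psma5 had 283 CPM in heart against 238 in spleen, and Psma6 had 164 and 187 CPM.

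The interferon-response cells of the spleen (cluster 7, 134 cells) had higher levels of all 3 immunoproteasome genes than other spleen cells. Markers of the interferon response summed to 3554 CPM there. Psmb10 had 387 CPM against 225 CPM in other spleen cells (log2 ratio 0.78, interval 0.64 to 0.92). Psmb9 had 543 against 349 CPM (0.63, 0.52 to 0.75), and Psmb8 had 1265 against 938 CPM (0.43, 0.35 to 0.51). Psmb8 and Psmb9 are the members encoded in the MHC region, and each of the 3 counting intervals lies above 0. The retrocopy Psme2b had 71.7 against 24.8 CPM, while its parent Psme2 had 373 against 326 CPM and Psme1 had 589 against 461 CPM.

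Over all members the difference was small. The median log2 ratio of the 35 members past the floor was −0.06, with 16 above 0, and that of all genes was −0.07. The 3 members at least 1.5-fold higher were Psmb10, Psmb9 and Psme2b, where 6.67% of all genes were. Psme2b passed the floor only through the cells of cluster 7. None was 1.5-fold lower, where 2.33% of all genes were. The constitutive catalytic genes were at 120 against 155 CPM for Psmb6, 72.6 against 81.7 CPM for Psmb7 and 215 against 235 CPM for Psmb5. The interval of the log2 ratio lay below 0 for Psmb6 (−0.62 to −0.12). It spanned 0 for Psmb7 (−0.50 to 0.14) and Psmb5 (−0.32 to 0.06). The 19S subunit Psmd8 had 134 against 194 CPM and the deubiquitinase Psmd14 had 60.2 against 83.4 CPM.

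The catalytic shares accordingly differed by state. In cluster 7 the immunoproteasome genes held 84.3% (83.0 to 85.6%) of catalytic UMIs, by pair 85.5% for Psmb8, 81.8% for Psmb9 and 84.2% for Psmb10. In the cycling cluster 6 the share was 73.4% (72.9 to 73.8%) in heart and 70.5% (69.2 to 71.7%) in spleen, the latter the lowest of the 9 combinations of library and cluster. Heart cluster 4 had 73.3% (72.5 to 74.0%), within the interval of the cycling heart cells, and heart cluster 0 had 75.8%. Among the larger spleen clusters the share ran from 75.1% in cluster 3 to 77.9% in cluster 1. Cluster 7 has few cells, and its intervals are the widest with those of spleen cluster 6.

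**Figure D5:**
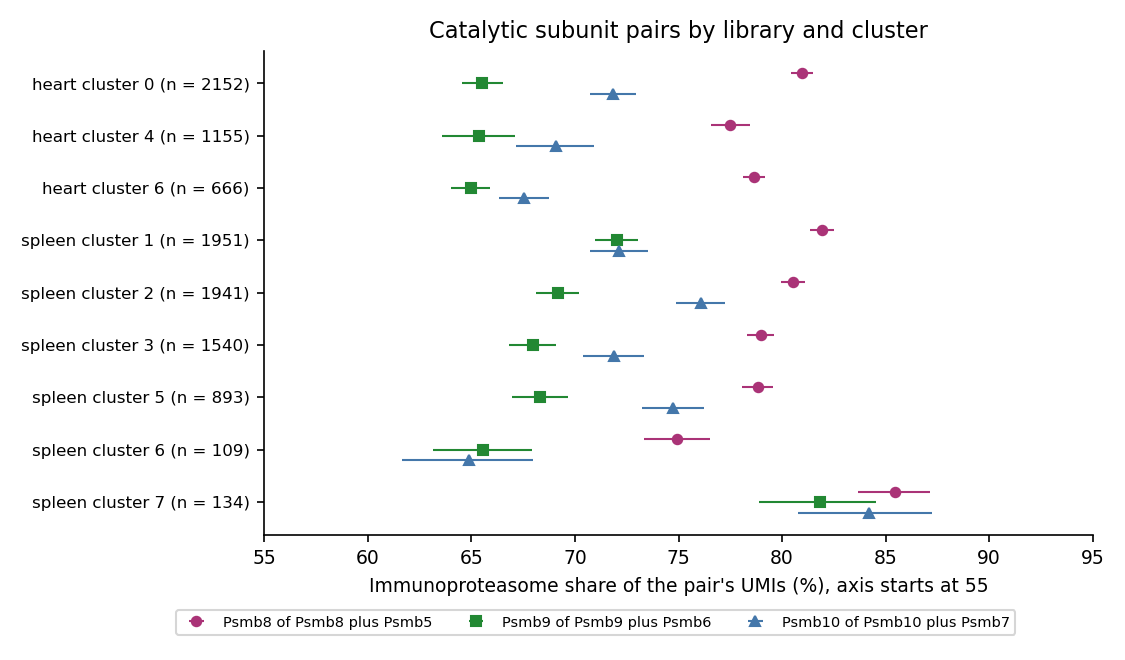
Share of UMIs held by the immunoproteasome gene in each catalytic pair, by library and cluster, in percent with 95% Clopper-Pearson intervals; the axis starts at 55%. Spleen cluster 7 lies farthest to the right for all 3 pairs, between 81.8% and 85.5%.

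In CPM of all UMIs, heart cluster 4 and spleen cluster 5 differed from other clusters of their own tissue across the members past the floor. In heart cluster 4, against heart cluster 0, 0 of 33 members had a ratio above 0 and the median log2 ratio was −0.35, where that of all genes was −0.14. No member reached 1.5-fold lower, where 5.22% of all genes did, or higher, where 2.8% did. Psmb9 had 208 against 305 CPM, Psmb8 had 663 against 951 CPM, and Psmb1 had 626 against 646 CPM. In spleen cluster 5, against spleen clusters 1 to 3, 35 of 35 members had a ratio above 0 and the median was 0.34, where that of all genes was 0.11. Psmb3, a structural inner-ring subunit, was the 1 member at least 1.5-fold higher there, with 369 against 240 CPM, where 10.3% of all genes were. None was 1.5-fold lower, where 4.25% of all genes were. With mitochondrial, ribosomal protein and Malat1 UMIs left out, the log2 ratio of the member sums moved from −0.33 to −0.20 for heart cluster 4 and from 0.35 to 0.14 for spleen cluster 5. Each plain ratio moves alike, so Psmb1 and Psmd4 then lie above 0 for heart cluster 4. For spleen cluster 5, members including Psmd11, Psmd10, Psma6, Psmd2, Psmc4 and Psma7 then lie below 0. The share of all genes with a ratio above 0 was not counted. Psmd2 passed the floor only through heart cluster 0, and Psmd3 and Psmd10 only through spleen cluster 5.

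Several genes that work with the proteasome differed by 1.5-fold or more between the tissues, read against the 19.6% of all genes that were that much higher in heart and the 13.7% lower. Of 5 chaperones that assemble the 20S core, 2 passed the floor and 0 reached 1.5-fold. Pomp, which completes core assembly, had 352 and 361 CPM, and Psmg1, under the floor, had 16.2 CPM in heart against 38.1 in spleen. Of 9 detected 19S-bound proteins outside the symbol rule, 6 passed the floor, 3 were at least 1.5-fold higher in heart and 0 lower. These were the deubiquitinase Uchl5 (70.3 and 36.4 CPM), the thioredoxin-like Txnl1 (159 and 104 CPM) and Zfand5 (99.1 and 64.9 CPM), which binds and stimulates the proteasome.

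Of 15 ubiquitin genes and substrate shuttles, 7 passed the floor. The polyubiquitin gene Ubb was at least 1.5-fold higher in heart, with 3713 and 2381 CPM. Of 6 genes that act on proteasome gene transcription, Stat3 alone passed the floor, with 172 and 73.3 CPM. Nfe2l1, the factor known for raising proteasome genes when the proteasome is inhibited, had 19.4 and 22.8 CPM.

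Of 10 interferon-driven partners in antigen processing, 8 passed the floor, 2 were at least 1.5-fold higher in heart and 0 lower. The MHC class I gene H2-D1 had 3624 and 2137 CPM, and Tap1 had 212 CPM (208 to 216) and 121 CPM (118 to 124). Tap1 thus differed from Psmb9, with which it shares the stretch between start sites shown above. Tap1 UMIs were 0.628 times Psmb9 UMIs in heart and 0.344 times in spleen, a difference between log2 ratios of 0.87 that ran from 0.35 (cluster 6) to 1.24 (cells of 5000 to 12000 UMIs) over the 15 settings. In spleen cluster 7 Tap1 was at 202 CPM.

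Single cells held a median of 61 member UMIs in heart and 57 in spleen. The spread was wider in heart, where the 5th and 95th percentiles were 25 and 254 UMIs, than in spleen, where they were 32 and 118. After thinning each cell to 1000 UMIs, cells held 7.72 ± 3.47 (SD over cells) member UMIs in heart and 7.25 ± 3.07 in spleen, with percentiles of 3 and 14 in heart and 3 and 13 in spleen. Barcodes with 1 to 100 UMIs, which hold mostly free RNA, had member sums of 8186 CPM (heart) and 7240 CPM (spleen), close to the cells of the same library. The part of free RNA in the differences between states was not tested.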

How the data were processed

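The authors deposited unnormalized UMI counts for each gene in each barcode. Per the file headers both matrices came from Cell Ranger 3.0.2. The submitters' processing notes list the build mm10 with Seurat 4.0.0 and Cell Ranger 7.0.0. Treatment of intronic reads is not given in the sources used here. Barcodes with at least 1000 UMIs, 500 genes and at most 10% mitochondrial UMIs were clustered jointly (scanpy 1.11.5, leidenalg 0.10.2, 2000 variable genes, 30 components, 15 neighbours, resolution 0.6) without members, receptor, mitochondrial, ribosomal and sex-linked genes. A cluster with myeloid markers was removed (88 heart and 14 spleen barcodes). No doublet caller was applied; an alternative leaves out cells over 3 times the median UMI count. Counts were summed per library as CPM. Ratios are log2 of (CPM + 1), which understates low genes; intervals beside them are exact, for the plain ratio. With 1 library per group, features past 1.5-fold with at least 50 CPM on either side are counted, as a description. Functions were tested on simulated data. Members and lists were chosen with earlier results of these data known. Named were the catalytic pairs, activators, inhibitor, each group's highest and lowest ratio, and up to 4 genes per pathway list farthest from the all-gene median; further members were named by count or after seeing values. Positions are from GENCODE M21 (GRCm38), the assembly of mm10, and RefSeq. A few list members are not reported here.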

Additional observations from a re-analysis of the deposited data

How the results depend on the processing

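With 1 library per group no replicate could be left out. No paired analysis was possible because each group has 1 library. The main values are a log2 ratio of 0.174 for the sum of all members, 0.110 for the member median and 0.0449 for the immunoproteasome sum, and immunoproteasome shares of catalytic UMIs of 74.4% in heart and 76.4% in spleen. In the order all-member sum, member median, immunoproteasome sum, they became 0.00496, −0.0577 and −0.124 with mitochondrial, ribosomal protein and Malat1 UMIs left out of the totals, and 0.125, 0.0612 and −0.00411 with median-of-ratios factors. Cells thinned to 1000 UMIs gave 0.0909, 0.0230 and −0.0658, and a mean of per-cell CPM gave 0.0758, −0.00580 and −0.0869. Dropping the cells above 3 times the median UMI count gave 0.108, 0.0187 and −0.0216. A stricter filter (2000 UMIs, 5% mitochondrial) gave 0.142, 0.0777 and 0.0163, and keeping all clusters gave 0.192, 0.135 and 0.0752. Without cycling cells they were 0.0934, −0.0125 and −0.0725, and in cycling cells alone 0.0191, −0.0248 and 0.0742. Without cells with an Hspa1a or Hspa1b UMI the sum was 0.185 and the median 0.120. The median was 0.0977 with a floor of 10 CPM and 0.0946 with none.

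Chosen after seeing the data were 4 further settings. Cluster 6 alone gave 0.0246, −0.0363 and 0.118, cells of 5000 to 12000 UMIs gave 0.0201, −0.0948 and −0.151, and leaving out heart cluster 4 gave 0.268, 0.221 and 0.170. Leaving out the 6 shared barcodes moved none of these beyond counting error. Psma5 was the 1 member at least 1.5-fold higher in every setting but 4, where the count was 0: the totals without mitochondrial, ribosomal protein and Malat1 UMIs, the cycling cells, cluster 6, and cells of 5000 to 12000 UMIs. The count of members at least 1.5-fold lower was 0 but for 1 in the first of these and with a floor of 10 CPM or none, and 2 in the cycling cells and in cluster 6. The 2 in cluster 6 and the 2 in the cycling cells, Psmd10 and Psmc1 each time, passed the floor only through the spleen cells. So did Psmd10, the 1 member called with mitochondrial, ribosomal protein and Malat1 UMIs left out. These calls carry no weight of their own. The heart share was 75.1% thinned, 74.7% as a per-cell mean, 74.9% without high-UMI cells, 74.8% without cycling cells, 73.5% in cycling cells, 73.4% in cluster 6 and 75.2% in cells of 5000 to 12000 UMIs. The spleen share was 76.7% thinned, 76.8% as a per-cell mean, 76.8% without cycling cells, 71.6% in cycling cells, 70.5% in cluster 6 and 76.9% in cells of 5000 to 12000 UMIs, so the heart share was the lower except among cycling cells. The cause of these changes was not tested.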
